A study of Rattus norvegicus with 2 samples.

Results

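The genes described here are 10 members of the BCL2 family, read by 32 probe sets out of 54613 on an Affymetrix expression array whose probe sets name 21357 human gene symbols. They were taken by name from the array's annotation, whatever their signals, and were grouped as survival genes (MCL1, BCL2, BCL2L1 and BCL2A1, 15 probe sets), effector genes (BAX and BAK1, 3 probe sets) and BH3-only genes (BCL2L11, BID, BAD and BBC3, 14 probe sets). RNA came from 1 sample of control YB2/0 cells, a rat myeloma line that the paper describes as untransfected, and from 1 sample of sorted YB2/0 cells, which the paper calls cloned. By the paper's methods, sorted cells had received a cDNA library of human umbilical vein endothelial cells through a retrovirus and had been picked by flow cytometry for binding of IgG from patients with Takayasu arteritis. The labels list no further treatment, and they do not say which serum, which clone or how many clones the sorted sample came from. Each condition has 1 array and no replicate, so each difference below describes these 2 arrays and no test was made.

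BCL2 family proteins control the release of cytochrome c from mitochondria. Survival proteins restrain the effectors, which otherwise form pores in the outer mitochondrial membrane. BH3-only proteins respond to stress, bind the survival proteins and free or activate the effectors. Plasma cells and myeloma cells are known for their dependence on MCL1, a protein that is degraded within a short time of its synthesis.

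The probes were designed on human sequence and the cells are of the rat, so a rat transcript is read only as far as it hybridises, and a low signal is no measure of a low mRNA level. For each probe set the authors deposited a signal made by the MAS5 method (an intensity on a linear scale) and a call of Present, Marginal or Absent from a detection p-value that compares matched with mismatched probes. The highest detection p-value of a Present call was 0.0490. Here “higher” means at least 2-fold brighter in sorted cells and Present there, and “lower” means at least 2-fold dimmer in sorted cells and Present in control cells. A fold between a Present and an Absent signal is the plain ratio of the 2 signals, and no lower limit is meant. Signals of different probe sets are not compared, since each binds with its own strength. Fewer transcribing cells and less RNA per cell cannot be told apart in such bulk samples.

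Facts of the whole arrays were as follows. The 18 probe sets for the hybridisation spikes, which enter each sample in fixed amounts, had a log2 ratio of sorted over control between -0.58 and 0.57. The inserted human genes went from Absent to Present, PROCR from 186 to 528933 at 203650_at and SCARB1 from 99.9 to 61076 at 201819_at. SCARB1 also became Present at 1552256_a_at, reached a Marginal call at 215834_x_at and stayed Absent at 215835_at and 232421_at. The plasma cell marker SDC1 was Present in both samples at 201287_s_at, with signals of 3390 and 4206, and Absent in both at 201286_at. Of 12 genes of plasma cells and B cells, 3 were detected in at least 1 sample, by 4 of 23 probe sets (17.4%, against 12.5% of all). Among these 3 genes, CD27 went from 1353 (Present) in control cells to 253 (Absent) in sorted cells. PRDM1 was Present in control cells only, from 1850 to 1113 (Marginal) at 217192_s_at and from 483 to 528 (Absent) at 228964_at. Every probe set of XBP1, CD38 and JCHAIN was Absent in both samples. All 16 probe sets of 8 endothelial cell genes, PECAM1 and VWF among them, were Absent in both samples, with summed signals of 6239 in control and 6123 in sorted cells. With 12.5% of all probe sets Present in at least 1 sample, a count of 0 of 16 says little.

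Of the 32 BCL2 family probe sets, 6 were Present in control cells and 8 in sorted cells, where the shares over all probe sets were 8.93% and 8.24%. The 8 in sorted cells included the 6 of control cells, so 8 (25%) were Present in at least 1 sample against 12.5% of all probe sets. They belong to MCL1, BCL2L1, BAX, BCL2L11 and BBC3. The other 24 were Absent in both samples, and these hold every probe set of BCL2, BCL2A1, BAK1, BID and BAD. None of the 32 had a Marginal call. By role, 2 of 15 survival (13.3%), 2 of 3 effector (66.7%, both of BAX) and 4 of 14 BH3-only probe sets (28.6%) were detected. Counts this small do not set the roles apart.

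**Figure D1:**
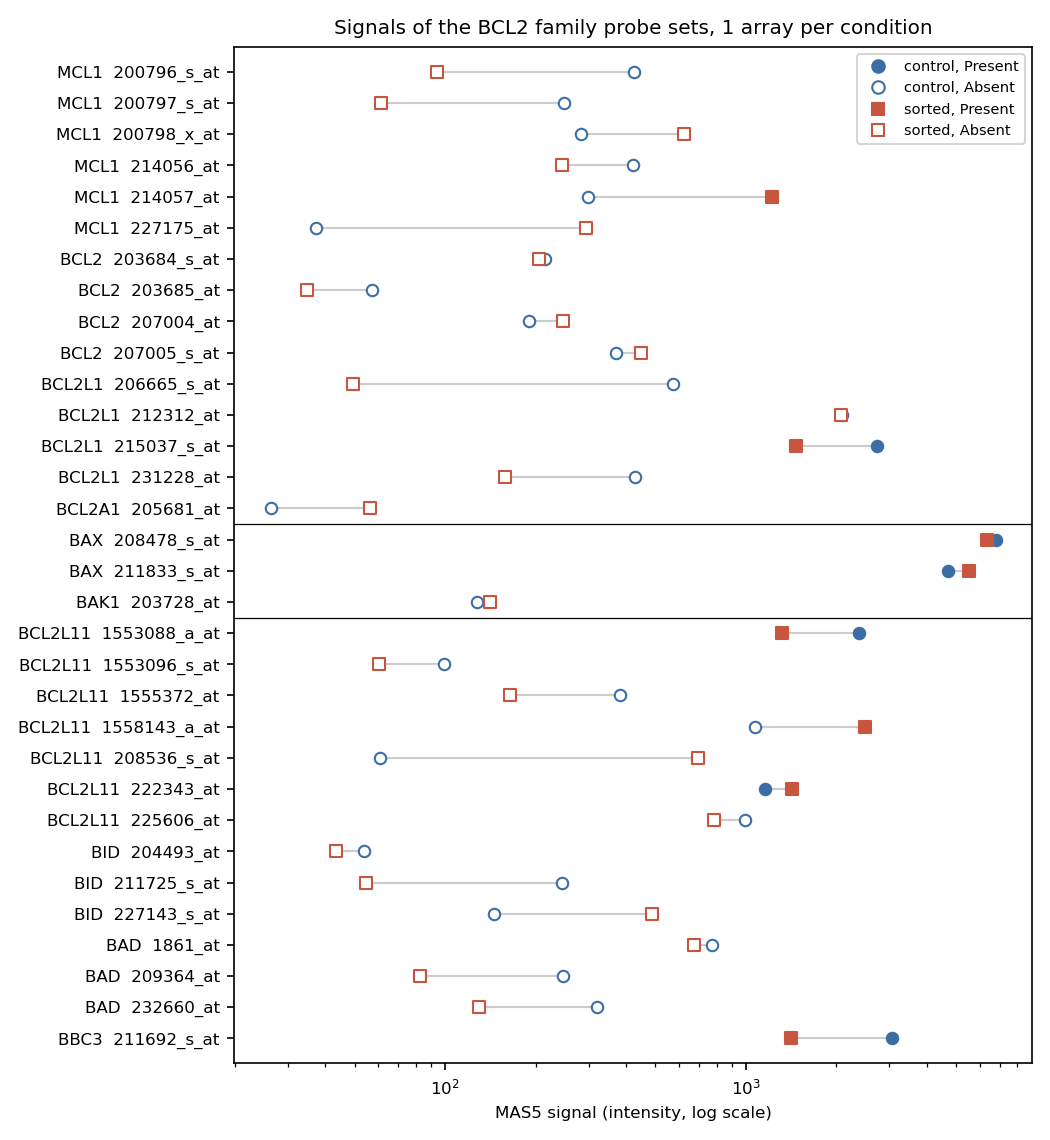
MAS5 signal (horizontal axis, log scale) of each of the 32 probe sets in control cells (circles) and sorted cells (squares), 1 array each, filled where Present and open where Absent, with lines between survival, effector and BH3-only genes. Filled symbols lie at 1161 or more, and open symbols reach from 26.3 to 2085.

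**Figure D2:**
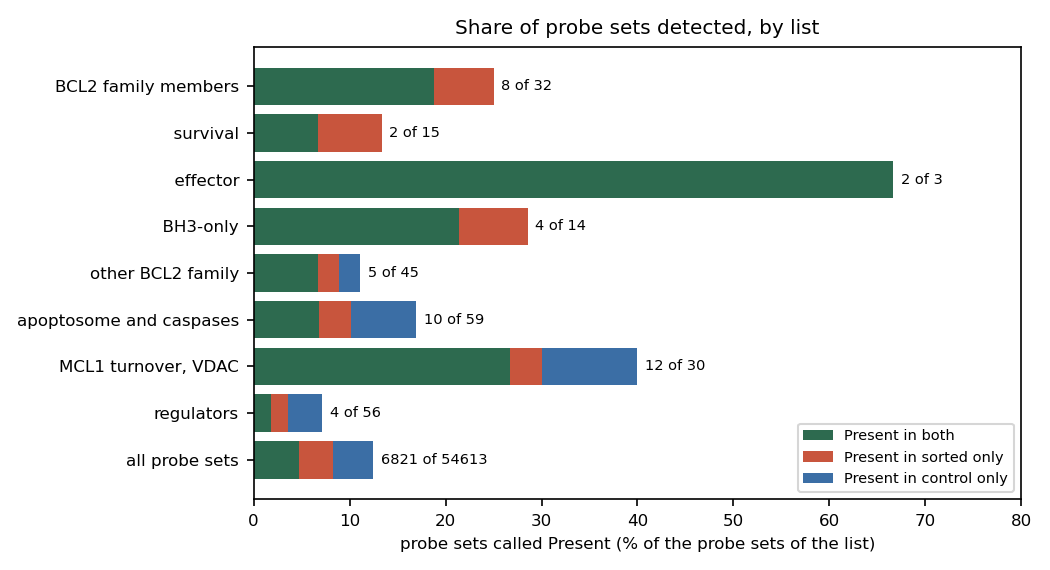
Share of probe sets called Present in both samples or on 1 array only (horizontal axis, percent of the list), for the BCL2 family members, their 3 roles, 4 wider lists and all probe sets, with counts beside the bars. For the members it is 8 of 32, for all probe sets 6821 of 54613.

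By the 2-fold rule, 2 of the 32 probe sets were higher in sorted cells, 1 of MCL1 and 1 of BCL2L11, against 1.61% of all probe sets. One was lower, that of BBC3, against 1.77% of all. Among probe sets Present in at least 1 sample, the same counts are 2 and 1 of 8, where 12.9% of all such probe sets were higher and 14.1% lower. Counts this small cannot set the family apart from the rest of the array. The median log2 ratio of the 8 detected probe sets was 0.07, beside 0.05 for all 6821 detected ones.

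MCL1, the survival gene on which myeloma cells are known to depend, was detected by 1 of its 6 probe sets. At 214057_at the signal went from 298 (Absent) in control cells to 1222 (Present) in sorted cells, 4.09-fold higher. Its detection p-value went from 0.195 to 0.0186. This ratio, 2.03 on the log2 scale, is the largest among the detected probe sets of the family, and it was 1.92 when log2 ratios were centred on the median of those Present on both arrays.

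The other 5 probe sets of MCL1 were Absent in both samples, and they did not move together. Signals went from 282 to 621 at 200798_x_at and from 37.1 to 295 at 227175_at. They went the other way at 200796_s_at, from 423 to 93.7, at 200797_s_at, from 248 to 61.1, and at 214056_at, from 420 to 244. Log2 ratios of the 6 probe sets thus ran from -2.18 to 2.99, a range of 5.17, with 3 above and 3 below 0 and a median of 0.18. The median range of the 326 genes with 6 probe sets of their own was 4.09. The higher MCL1 signal therefore rests on 1 probe set on 1 array.

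BCL2L1 encodes BCL-XL, another survival protein of long-lived cells. It was Present in both samples at 215037_s_at, with a signal of 2725 in control against 1466 in sorted cells. The log2 ratio of -0.89 falls short of 2-fold, and with centring it just passed. The remaining 3 probe sets were Absent in both samples. At 212312_at the signals of 2085 and 2081 were nearly equal, while 231228_at went from 430 to 158 and 206665_s_at from 571 to 49.4. No probe set of BCL2L1 was brighter in sorted cells.

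BCL2, the founding member of the family, was Absent at all 4 probe sets in both samples. Signals ranged from 57.3 to 371 in control cells and from 34.8 to 448 in sorted cells, and log2 ratios from -0.72 to 0.38. BCL2A1, a survival gene induced by NF-kB, has a single probe set, 205681_at, which was Absent at 26.3 in control and 56.4 in sorted cells. No level or direction was measured for either gene.

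**Figure D3:**
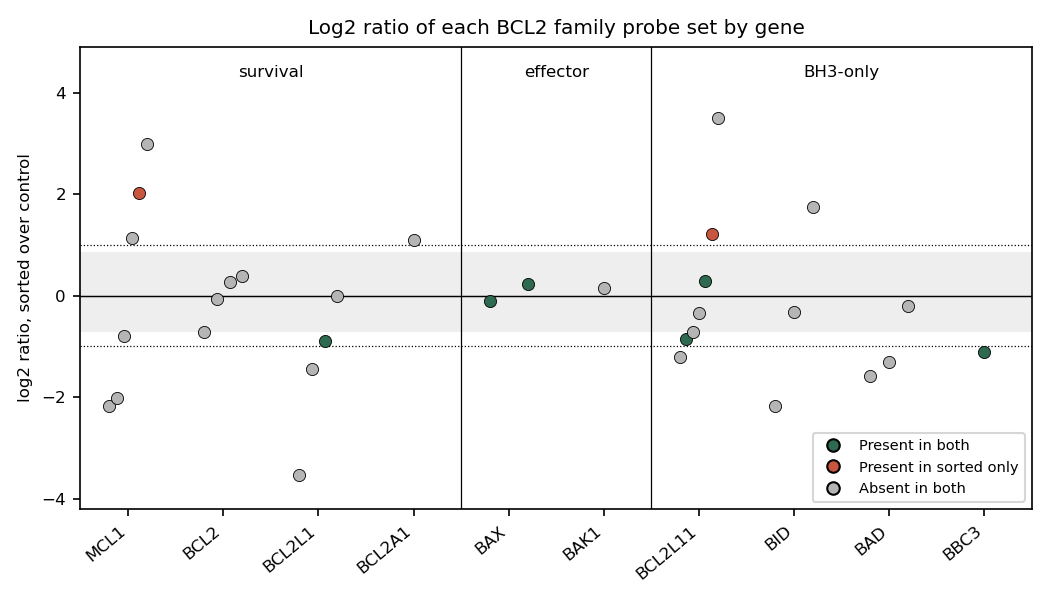
Log2 ratio of sorted over control signal (vertical axis) for each probe set, by gene and role, coloured by detection. Dotted lines mark 2-fold, and the grey band spans the 10th to 90th percentile (-0.69 to 0.84) of all probe sets Present in both samples. Absent probe sets reach from -3.53 to 3.51, whereas those Present in both samples lie between -1.12 and 0.29.

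BAX, the cytosolic effector that inserts into mitochondria on activation, was detected by both of its probe sets on both arrays. At 208478_s_at the signal was 6781 in control against 6335 in sorted cells. At 211833_s_at it was 4692 in control against 5527 in sorted cells. The log2 ratios of -0.10 and 0.24 have opposite signs and lie within the range of the hybridisation spikes. BAX thus differed by less than 2-fold at both probe sets, and its detection p-values lay between 0.000244 and 0.0186. BAK1, the effector that resides in the mitochondrial membrane, has a single probe set, 203728_at, Absent at 127 in control and 142 in sorted cells.

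BCL2L11 encodes BIM, a BH3-only protein that binds all the main survival proteins. Detection on either array was reached by 3 of its 7 probe sets, and these 3 gave different answers. At 1558143_a_at the signal went from 1077 (Absent) to 2488 (Present), 2.31-fold higher in sorted cells. At 1553088_a_at, Present in both samples, it went from 2383 to 1322, with a log2 ratio of -0.85. At 222343_at, also Present in both, it went from 1161 to 1419, with a log2 ratio of 0.29.

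Detection in sorted cells was close to the limit at 1553088_a_at and 222343_at, with p-values of 0.0439 and 0.0444. The 4 Absent probe sets of BCL2L11 spread further. Signals went from 61.0 to 693 at 208536_s_at, from 993 to 786 at 225606_at, from 382 to 165 at 1555372_at and from 99.0 to 60.3 at 1553096_s_at. The whole gene ranged over 4.72 log2 units, near the median of 4.38 for the 171 genes with 7 probe sets. No single direction can be given for BCL2L11.

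BBC3 encodes PUMA, a BH3-only protein and a known p53 target. It is read by 211692_s_at alone, which was Present in both samples at 3074 in control against 1416 in sorted cells. The log2 ratio was -1.12, or 2.17-fold lower, and -1.17 after quantile normalization. It is the only detected probe set of the family that was lower by the 2-fold rule. The annotation also assigns this probe set to the microRNA genes MIR3190 and MIR3191, so it does not name BBC3 alone. Of all probe sets Present in both samples, 10.5% differed by 2-fold or more, and this was 1 of 6 in the family.

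BID, which caspase-8 cleaves into its active form, was Absent at its 3 probe sets in both samples. Signals were 53.8 and 43.3 at 204493_at, 245 and 54.6 at 211725_s_at, and 145 and 490 at 227143_s_at, in control and sorted cells. BAD, whose binding to survival proteins is blocked by phosphorylation, was Absent at its 3 probe sets as well. Signals were 773 and 675 at 1861_at, 247 and 82.4 at 209364_at, and 319 and 129 at 232660_at. The log2 ratios of BAD were all below 0, from -1.58 to -0.20, and those of BID had both signs. Neither gene was measured above background.

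**Figure D4:**
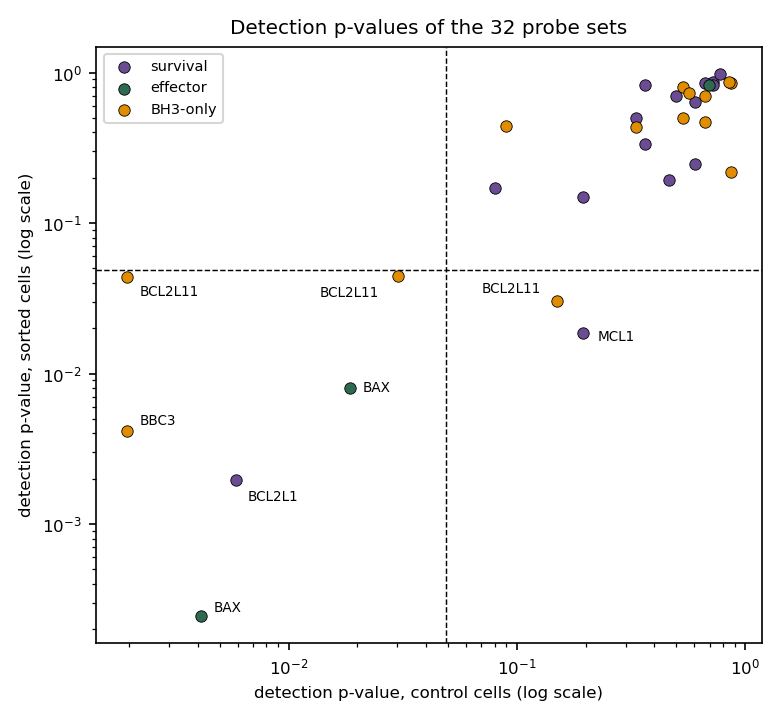
Detection p-value of each of the 32 probe sets, with control cells on the horizontal and sorted cells on the vertical log axis, coloured by role, with dashed lines at 0.0490, the highest value of a Present call. The 6 probe sets at lower left were Present in both samples, and MCL1 and a BCL2L11 probe set at lower right crossed the limit in sorted cells only.

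The probe sets Absent in both samples show how far signals vary without detection. Among the 24 in the family, 13 differed by 2-fold or more, 5 upward and 8 downward, and 51.6% of all probe sets Absent in both samples did so. Their median absolute log2 ratio was 1.12 in the family and 1.04 over all such probe sets, beside 0.40 for all probe sets Present in both samples. The largest ratios of the family, 3.51 for BCL2L11 at 208536_s_at and -3.53 for BCL2L1 at 206665_s_at, both lie among these undetected probe sets. Of 7 family genes with at least 2 probe sets, 5 had log2 ratios of both signs, where 67.5% of 10523 such genes did.

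The genes were also summarised by the median of their probe sets. That median was above 0 for 5 genes and below 0 for 5, and over the 10 genes it was -0.12, beside -0.04 over 19775 genes. At the brightest probe set of each gene the median of the family was 0.07. The sign of the family median thus depended on how probe sets were summarised. Both medians include BCL2, BCL2A1, BAK1, BID and BAD, of which no probe set was detected. For BCL2L1 the brightest probe set was 212312_at, Absent in both samples. No direction of the family can be read from these medians.

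Probe design was examined as a property that the choice of genes did not use. Probe sets ending in _s_at, _x_at or _a_at, which can bind several transcripts, gave 6 of the 8 detections out of 16, and those ending in plain _at gave 2 out of 16. Over all probe sets, 16.6% of the former and 10.6% of the latter were Present in at least 1 sample. Of 12 family probe sets annotated to a RefSeq mRNA, 2 were Present, compared with 6 of 20 annotated to another or no target. Over the array the shares were 16.2% and 11.7%. Counts of 2 and 6 are too small to set the family apart from the array here.

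The wider pathway was read through 4 lists of 63 genes, of which 59 had a named probe set (190 in all) and 4 were not analysed here. In these lists 31 probe sets of 22 genes were Present in at least 1 sample, 2 were higher and 4 were lower by the 2-fold rule. The share detected was 16.3% against 12.5% of all probe sets, and the calls of 2 and 4 in 190 stand beside 1.61% and 1.77% of all probe sets, so they lie near the array as a whole. Values below are of detected probe sets unless an Absent or Marginal call is given, and of the 153 probe sets of these lists Absent in both samples 75 differed by 2-fold or more in signal. Among 16 other genes of the BCL2 family, 5 of 45 probe sets (11.1%) were Present. BCLAF1, a nuclear protein first found as a partner of viral and cellular BCL2 proteins, was higher at 214499_s_at, from 1354 (Absent) to 3589 (Present). At 201101_s_at, Present in both samples, BCLAF1 went from 5016 to 6100, with a log2 ratio of 0.28. HRK, a BH3-only gene, was Present in both samples at 237187_at with signals of 1652 and 2213. BCL2L2, the survival gene of BCL-W, was Present in control and Marginal in sorted cells at 209311_at, with signals of 2204 and 3317. At 201544_x_at it was Present in both samples, with 53439 and 51006. The annotation also assigns that probe set to PABPN1 and BCL2L2-PABPN1, so it does not name BCL2L2 alone.

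Among genes of the apoptosome, the caspases and their inhibitors, 10 of 59 probe sets (16.9%, against 12.5% of all) were Present in at least 1 sample. By the 2-fold rule 1 of the 59 was higher and 3 were lower, beside 1.61% and 1.77% of all probe sets. APAF1, the scaffold on which cytochrome c assembles the apoptosome, was lower at both of its detected probe sets, which lost their Present call in sorted cells. At 204859_s_at it went from 549 (Present) to 81.0 (Absent), and at 211553_x_at from 1096 to 535, 2.05-fold lower. The third probe set, 211554_s_at, went from 293 to 1169 and was Absent in both samples. When dim signals were raised to the median Absent signal, the log2 ratio at 204859_s_at was -1.21 in place of -2.76. HTRA2, a mitochondrial protease that is released with cytochrome c, was lower at 203089_s_at, from 1023 (Present) to 427 (Absent). At 211152_s_at it was Absent at 1455 and Present at 1183. CASP8, the caspase that cleaves BID, was higher at 1553306_at, from 1416 to 2874, Present in both samples. Its log2 ratio of 1.02 was 0.91 with centring and 0.98 with quantile normalization, under 2-fold.

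In the list of mitochondrial channels and proteins acting on MCL1 stability, 12 of 30 probe sets (40%, against 12.5% of all) were Present in at least 1 sample. None of the 30 passed the 2-fold rule, and with 1.61% of all probe sets higher and 1.77% lower a count of 0 says nothing about the list. HUWE1, a ubiquitin ligase of MCL1, was Present in both samples at 207783_x_at, with 10204 in control against 13866 in sorted cells, and at 208598_s_at, with 7879 and 8437. The remaining probe sets of HUWE1 were Absent in both samples, with log2 ratios from -3.17 at 214673_s_at to 0.03 at 236294_at. USP9X, which removes ubiquitin from MCL1, was Present in both samples at 201100_s_at with 5240 and 8817, a log2 ratio of 0.75. The other 3 probe sets of USP9X, none of them Present, were dimmer in sorted cells, with 821 (Absent) and 546 (Marginal) at 201099_at, 1945 (Marginal) and 546 (Absent) at 229573_at, and Absent calls at 230543_at. No single direction can be given for USP9X. VDAC2, the mitochondrial channel that binds BAK1, had 16276 and 9485 at 211662_s_at, a log2 ratio of -0.78. VDAC3 was detected by its 3 probe sets, with log2 ratios of -0.26, -0.81 and -0.10. VDAC1 was brighter in sorted cells at its 1 detected probe set, 217140_s_at, with 3862 and 6848.

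Of the genes that regulate transcription of family members, 4 of 56 probe sets were Present in at least 1 sample (7.14%, against 12.5% of all). By the 2-fold rule 1 of the 56 was lower, beside 1.77% of all probe sets, a count that says nothing about the list. STAT5B, a transcription factor of cytokine signalling, was lower at 205026_at, from 1099 (Present) to 358 (Absent), 3.07-fold. Its remaining probe sets were Absent in both samples, with log2 ratios from -0.92 at 1555088_x_at to 3.40 at 212550_at. No single direction can be given for STAT5B. MDM2, the ligase of p53, went from 2222 (Absent) to 4336 (Present) at 211832_s_at, with a log2 ratio of 0.96. The remaining probe sets of MDM2 were Absent in both samples, with log2 ratios from -3.53 at 205386_s_at to 4.19 at 205385_at. JAK1, a kinase of cytokine receptors, was Present in both samples at 1552610_a_at with 7942 and 7711.

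**Figure D5:**
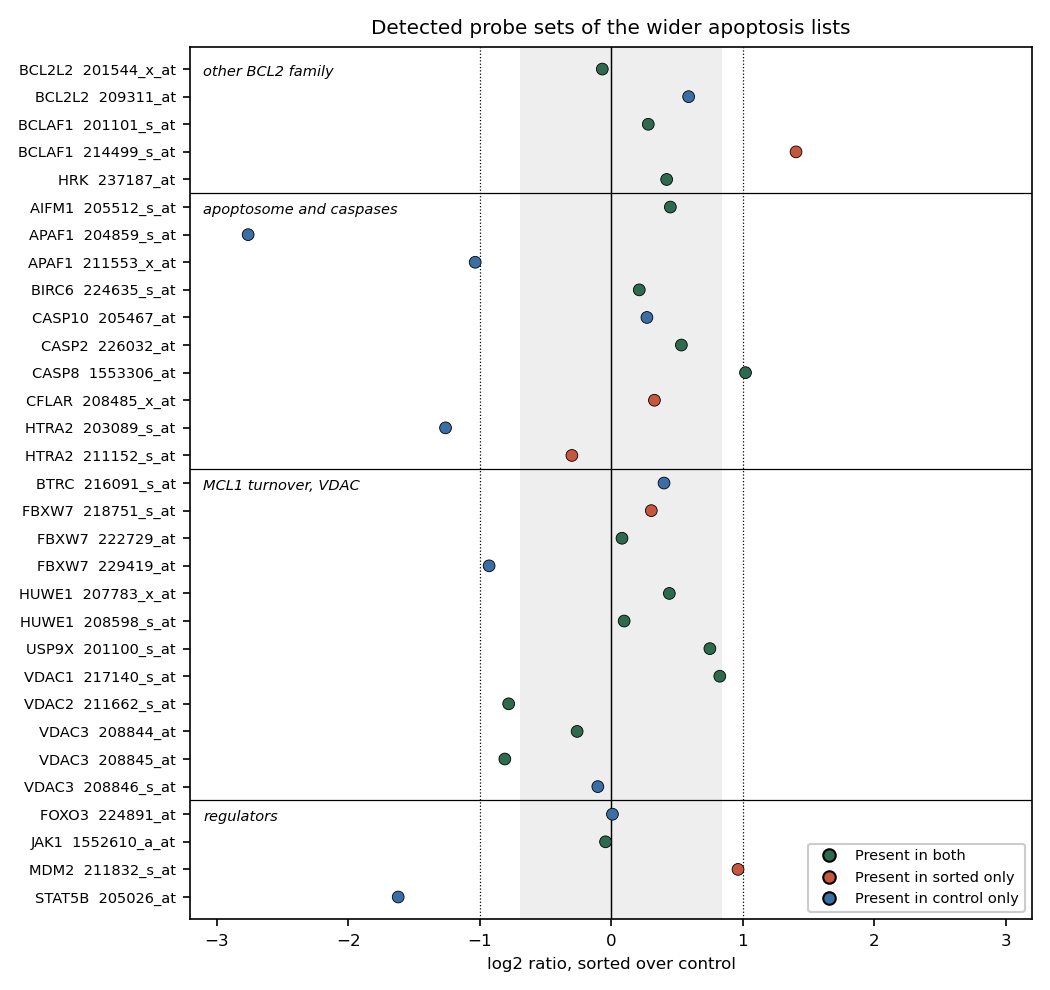
Log2 ratio of sorted over control signal (horizontal axis) for the 31 probe sets of the wider lists that were Present in at least 1 sample, grouped by list and coloured by detection. Dotted lines mark 2-fold, and the grey band spans -0.69 to 0.84, the 10th to 90th percentile of all probe sets Present in both samples. Single probe sets of BCLAF1 and CASP8 lie to the right of the dotted lines, and those of STAT5B, of APAF1 and 1 of HTRA2 to the left.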

How the data were processed

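RNA of control and of sorted YB2/0 cells was hybridised to 1 array each. The authors deposited a MAS5 signal (intensity, linear scale) per probe set with a detection call and a detection p-value, with each array scaled to a 2% trimmed mean of 500.0. Affymetrix Expression Console is named in the submitters' processing notes, its version not given in the sources used here. One series-wide deposited value table held the same signals. The 62 control probe sets were left out, and 41091 of 54613 probe sets named 1 gene, 1801 several and 11721 none.

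Members, lists, rules and alternatives were chosen with earlier results of these data known. Named genes were all members, and wider genes past the 2-fold rule. Other detected wider genes were named after their values were seen. Log2 ratios used the signals as deposited. Folds are plain ratios of these signals, also where 1 of them was Absent. The lowest Present signal was 148 in control and 159 in sorted cells. The alternatives were quantile normalization, centring on probe sets Present in both samples, probe sets ending in plain _at and the value table. Further ones were a 4-fold rule, raising dim signals to the median Absent signal and other uses of the call. The number of arrays limits the precision. Python 3.11.15, numpy 2.4.6, pandas 2.3.3, scipy 1.17.1 and matplotlib 3.10.9 were used. The fold rules were run on simulated signals, with shifts of 4-fold or more planted in probe sets Present in both samples. That run did not cover changes of call or ratios near 2-fold.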

Additional observations from a re-analysis of the deposited data

How the results depend on the processing

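With 1 array per condition, no array could be left out and no paired analysis was possible because nothing pairs the samples. A log2 ratio was said to move where it changed by more than 0.33, the SD over the hybridisation spikes, and a count where it changed by more than 1.5 times. The 8 member probe sets detected were 5 at a detection p-value under 0.01 and 8 with Marginal calls allowed. The 2 higher probe sets were 1 with probe sets ending in plain _at, 1 with a 4-fold rule and 7 with no detection call required. The 1 lower probe set was 2 with centring and 9 with no detection call required. The count was 0 with probe sets ending in plain _at, with a 4-fold rule and with an Absent call required in sorted cells. With probe sets naming 1 gene it was also 0, an alternative chosen after the data were seen. Quantile normalization, the value table and a floor on dim signals moved neither count, and centring, which shifts all log2 ratios by 0.11, did not move the higher one. Over 14 probe sets and 4 such alternatives, 0 log2 ratios reversed and 1 moved, that of APAF1 at 204859_s_at with the floor. The family median of -0.12 lay between -0.23 and 0.07 in the alternatives run on it.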
